A study of Mus musculus with 24 samples.

Results

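Cyp2b9, Cyp2b10 and Cyp2b13 are the 3 liver-expressed Cyp2b cytochromes examined here. They were taken as every non-control probe whose gene name in the scanner files is one of these symbols, which gave 3 of 37074 gene names and 4 of 56605 probes, 1 each for Cyp2b9 and Cyp2b13 and 2 for Cyp2b10. All 4 were among the 32078 probes that were well above background on at least 4 of 6 arrays of a group and were tested. The Cyp2b13 probe and the upstream Cyp2b10 probe passed that filter through the pesticide groups only, so a difference was built into their selection. RNA from C57BL/6J mouse liver was hybridised to 24 single-colour arrays, 6 for each of 4 labelled groups: male mice on a diet enriched with a pesticide mixture, male mice on the control diet, female mice on the pesticide diet, and female mice on the control diet. Mice were bought at 8 weeks of age, acclimatised for 2 weeks and kept on their diet for 52 weeks, and the age label of every sample is 68 weeks. The series title puts the mixture at the acceptable daily intake. The labels number 6 liver samples per group without naming mice, so p-values measure the spread between these samples, which may be technical.

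The sex labels do not match the sex-linked transcripts on 12 of the 24 arrays. Xist, the RNA that coats the inactive X chromosome, cleared background on each of the 12 arrays labelled pesticide and on 0 of the 12 labelled control. Eif2s3y, a Y-linked translation factor gene, and the Y-linked genes Ddx3y, Kdm5d and Uty did so on 0 arrays labelled pesticide and on each of the 12 labelled control. Diet as labelled and the sex-linked transcripts therefore cannot be told apart in any comparison of diets below, and groups are named by their labels only. The mean log2 level of 9 tested hepatocyte markers was 16.67 to 16.89 on labelled male pesticide arrays, 16.80 to 16.95 on labelled male control arrays, 16.61 to 16.84 on labelled female pesticide arrays and 16.71 to 16.82 on labelled female control arrays.

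Cyp2b enzymes are haem monooxygenases of the endoplasmic reticulum that oxidise drugs, pesticides and steroids. Transcription of Cyp2b10 is the standard readout of the constitutive androstane receptor CAR (Nr1i3), a nuclear receptor that moves from cytoplasm to nucleus on exposure to inducers such as phenobarbital and binds DNA together with RXR. In adult mouse liver Cyp2b9 and Cyp2b13 are also known for higher expression in females than in males, which depends on the sex-specific pattern of growth hormone release. The genes lie in a cluster of Cyp2 genes on chromosome 7.

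The probe sequences are shown because the 3 genes are close paralogues and each probe has to separate one transcript from the others. All 4 probes are 60 bases long and map to the plus strand of mouse chromosome 7, build mm9. The Cyp2b9 probe A_51_P467076 lies at chr7:26995607-26995666 and starts at position 1804 of its transcript. The Cyp2b13 probe A_52_P289091 lies at chr7:26880905-26880964 and starts at position 1565. For Cyp2b10, the downstream probe A_55_P2044653 lies at chr7:26711522-26711581, transcript position 1756, and the upstream probe A_52_P472486 at chr7:26702056-26702115, transcript position 1094. No exon annotation of this build was used, so exon and untranslated positions are not given. Capitals mark the run that the Cyp2b9 and downstream Cyp2b10 probes share.
Cyp2b9, bases 1 to 30: TAAGGTCTGAtttctatgtctacagacttg
Cyp2b10 downstream, bases 31 to 60: gtgctaatggactctgtaTAAGGTCTGAat
Cyp2b10 upstream, bases 1 to 60: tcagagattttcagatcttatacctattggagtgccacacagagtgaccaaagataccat
Cyp2b13, bases 1 to 30: agagctgctggaaactagactgtatgttgc
The marked run of 10 bases was the longest shared by any pair of the 4 probes, and the other 5 pairs shared runs of 5 to 7 bases. The best ungapped overlap of at least 30 bases between the Cyp2b9 and downstream Cyp2b10 probes matched at 15 of 38 positions (39.5%). Against the other 56604 probe sequences on the array, read on both strands, the longest shared run was 13 to 15 bases and 0 probes shared 16 or more. These comparisons are between probes. How well each probe binds the transcripts of the paralogous genes was not tested.

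The promoter windows are shown because those of Cyp2b9 and Cyp2b13 are nearly the same sequence. RefSeq promoter windows on GRCm38.p6 matched all 3 genes, and the 250 bases before the start used there are given on the plus strand. RefSeq's gene table for the same assembly starts Cyp2b9 and Cyp2b13 earlier, so 59 bases of the Cyp2b9 window and 107 of the Cyp2b13 window lie inside the annotated gene, and 0 of the Cyp2b10 window. Capitals in the first pair mark the bases that differ between Cyp2b9 and Cyp2b13, and in Cyp2b10 a run of 12 bases also present in the Cyp2b9 window.
Cyp2b9, chr7:26173159-26173408: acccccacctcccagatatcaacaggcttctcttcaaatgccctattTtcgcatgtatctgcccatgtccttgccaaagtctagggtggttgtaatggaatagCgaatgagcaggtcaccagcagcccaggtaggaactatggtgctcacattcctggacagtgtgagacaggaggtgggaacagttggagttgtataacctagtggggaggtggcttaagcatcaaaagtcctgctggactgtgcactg
Cyp2b13, chr7:26061245-26061494: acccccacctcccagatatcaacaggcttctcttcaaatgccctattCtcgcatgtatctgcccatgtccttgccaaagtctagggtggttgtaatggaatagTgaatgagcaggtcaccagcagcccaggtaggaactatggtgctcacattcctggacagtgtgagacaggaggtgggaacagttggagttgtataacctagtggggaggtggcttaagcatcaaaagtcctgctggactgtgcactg
Cyp2b10, chr7:25897408-25897657: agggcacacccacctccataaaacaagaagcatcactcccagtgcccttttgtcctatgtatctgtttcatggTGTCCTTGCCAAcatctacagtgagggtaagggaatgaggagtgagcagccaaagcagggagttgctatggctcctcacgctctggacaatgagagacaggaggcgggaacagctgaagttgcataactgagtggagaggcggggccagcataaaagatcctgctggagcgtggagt
Cyp2b9 and Cyp2b13 were identical at 248 of 250 positions (99.2%) and differed by the substitutions T48C and C104T, written as the Cyp2b9 base, the position counted from 1 at the 5′ end of the window, and the Cyp2b13 base. Cyp2b10 aligned to Cyp2b9 with 182 of 240 aligned positions identical (75.8%), and to Cyp2b23, another gene of the cluster, with 180 of 211 (85.3%). The nuclear receptor half-site AGGTCA, searched on both strands, was present once in the Cyp2b9 and Cyp2b13 windows, at base 113, and absent as these letters from the Cyp2b10 window, against 14% of 32851 promoter windows of the same length that hold it. The STAT5-type motif TTCNNNGAA was found in 0 of the 3 windows and in 7.02% of all windows. The phenobarbital-responsive enhancer of Cyp2b10 is known to lie farther upstream and is outside these windows.

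Cyp2b9 was far higher on pesticide than on control arrays in both comparisons of diets. On labelled male pesticide arrays its normalised log2 level was 16.32, 16.03, 15.78, 16.07, 15.76 and 16.24 in replicates 1 to 6, against 9.42, 7.18, 6.03, 6.13, 7.04 and 7.76 on labelled male control arrays. On labelled female pesticide arrays it was 16.17, 16.17, 14.52, 16.21, 16.07 and 16.19, against 11.16, 6.86, 10.15, 7.45, 11.92 and 6.57 on labelled female control arrays. The pesticide arrays were uniformly high except for replicate 3 of the labelled female pesticide group, and the control arrays ran over a wide range without reaching any pesticide array. Raw median signals were 59049 to 86556 on labelled male pesticide arrays against 58 to 628 on labelled male control arrays, and 0 spots of any array were saturated. The gap between the lowest pesticide and the highest control array was 6.34 log2 units for the arrays labelled male and 2.60 for those labelled female.

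The 2 Cyp2b10 probes gave effects of different size in the same direction. The downstream probe had levels of 15.92, 15.51, 15.28, 15.75, 15.49 and 15.90 on labelled male pesticide arrays, against 9.85, 7.91, 6.42, 7.25, 7.87 and 8.79 on labelled male control arrays. It had 15.85, 15.62, 14.32, 15.91, 15.66 and 15.76 on labelled female pesticide arrays, against 11.44, 7.56, 10.19, 8.19, 11.69 and 6.86 on labelled female control arrays. Array by array this probe followed Cyp2b9, including the low value of labelled female pesticide replicate 3. The upstream probe had 9.03, 7.0, 7.85, 8.34, 8.08 and 8.71 on labelled male pesticide arrays, against 5.90, 5.43, 5.01, 5.15, 5.34 and 5.77 on labelled male control arrays. It had 9.14, 8.07, 8.20, 8.75, 8.82 and 8.46 on labelled female pesticide arrays, against 6.79, 5.08, 5.86, 5.62, 6.33 and 5.11 on labelled female control arrays. The pesticide and control groups of this probe did not overlap either, but it was well above background on only 2 of 6 labelled male control and 3 of 6 labelled female control arrays, and labelled female pesticide replicate 3 lay inside the range of its group. On Feature Extraction's processed signal, which has background subtracted, the log2 fold change of the upstream probe was 4.66 for the arrays labelled male and 4.40 for those labelled female, against 2.74 and 2.77 on the signal used here, so its size depends on the signal used. Levels of different probes are not comparable with each other.

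Cyp2b13 was near background on the control arrays and high on nearly every pesticide array. Its levels were 14.53, 12.42, 13.29, 13.82, 12.62 and 13.32 on labelled male pesticide arrays, against 5.24, 4.98, 5.29, 4.98, 5.32 and 5.24 on labelled male control arrays. They were 13.75, 13.98, 9.32, 13.01, 13.80 and 13.87 on labelled female pesticide arrays, against 5.81, 4.99, 5.27, 5.31, 6.40 and 4.95 on labelled female control arrays. The groups did not overlap, and replicate 3 of the labelled female pesticide group stood between the other pesticide arrays and the controls. The probe was well above background on 0 of 6 labelled male control arrays and on 2 of 6 labelled female control arrays, replicates 1 and 5.

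**Figure D1:**
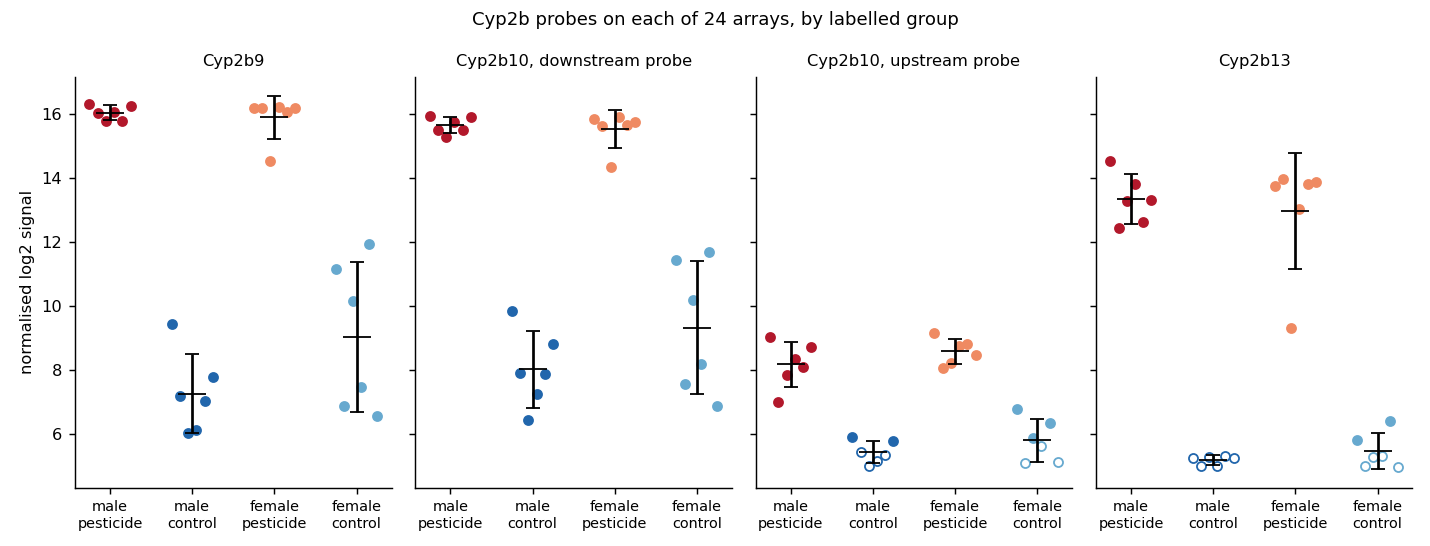
Normalised log2 signal (vertical axis) of the 4 Cyp2b probes on each array, by labelled group, with replicates 1 to 6 from left to right within a group. Filled points are well above background and open points are not. Bars show the mean ± SD of 6 arrays. Pesticide and control groups do not overlap for any probe, the Cyp2b9 and downstream Cyp2b10 probes are widely spread on labelled female control arrays, and replicate 3 of the labelled female pesticide group is low for Cyp2b9 (14.52), the downstream Cyp2b10 probe (14.32) and Cyp2b13 (9.32).

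All 4 probes were higher on labelled male pesticide than on labelled male control arrays by limma with Benjamini-Hochberg adjustment over 32078 probes. In that comparison 22.2% of the tested probes passed an adjusted p of 0.05, and 11.6% passed and were higher. Cyp2b9 averaged 16.03 ± 0.23 on labelled male pesticide and 7.26 ± 1.25 on labelled male control arrays (SD, n = 6 each). Its log2 fold change was 8.78 with an SE of 0.73, or 438-fold (limma adjusted p = 3.4e-09). The downstream Cyp2b10 probe changed by 7.63 ± 0.66 (limma adjusted p = 6.6e-09) and the upstream probe by 2.74 ± 0.30 (limma adjusted p = 3.8e-07). Cyp2b13 averaged 13.33 ± 0.78 on labelled male pesticide arrays against 5.18 ± 0.15 on labelled male control arrays (SD, n = 6 each), and the log2 difference was 8.16 ± 0.55 (limma adjusted p = 6.9e-11). Since Cyp2b13 was not well above background on any labelled male control array, it was at least 241-fold higher, taking the higher of its own signal and the lowest signal called well above background on each array as the bound. By size of log2 fold change Cyp2b9 ranked 8 and the downstream Cyp2b10 probe 10 of the 32078 probes. The Cyp2b13 value rests on a control group at background and has no settled rank, and it was 11.05 on the processed signal.

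The comparison of labelled female pesticide with labelled female control arrays also had all 4 probes higher on the pesticide arrays. There 18.3% of tested probes passed limma's adjusted p of 0.05, and 8.88% passed and were higher. Cyp2b9 averaged 15.89 ± 0.67 on labelled female pesticide and 9.02 ± 2.34 on labelled female control arrays (SD, n = 6 each), with a log2 difference of 6.87 ± 0.73 (limma adjusted p = 2.8e-07). The downstream Cyp2b10 probe changed by 6.20 ± 0.66 (limma adjusted p = 2.8e-07), the upstream probe by 2.77 ± 0.30 (limma adjusted p = 3.6e-07), and Cyp2b13 by 7.50 ± 0.55 (limma adjusted p = 3.6e-10). Only 3 of 6 labelled female control arrays measured the upstream probe above background and 2 of 6 measured Cyp2b13, so the sizes of these changes are uncertain, and on the processed signal that of Cyp2b13 was 9.72. Without labelled female pesticide replicate 3, the Cyp2b13 value was 8.23. The pesticide and control groups of all 4 probes did not overlap. Among all tested probes this held for 10.2% between the groups labelled male, with 5.6% higher in the pesticide group, and for 7.82% between those labelled female, with 3.64% higher.

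Because limma shares 1 estimate of spread over groups whose spreads differ for these probes, each probe was also tested alone. The exact permutation test of 6 against 6 arrays gave p = 0.0022 for every probe in both comparisons of diets, the smallest value the design allows, and 0.0044 after adjustment over 16 such tests. Cyp2b13 and the upstream Cyp2b10 probe passed the filter through the pesticide groups only. Neither their p-values nor their lack of overlap is independent of that selection. The 3 slides each carried 2 arrays of every group. Within slides 1, 2 and 3 the log2 fold change of Cyp2b9 was 7.88, 9.85 and 8.60 for labelled male pesticide against labelled male control, and 7.16, 6.57 and 6.89 for labelled female pesticide against labelled female control. For Cyp2b13 the same values were 8.36, 8.42 and 7.69, and 8.46, 5.88 and 8.16. For the downstream Cyp2b10 probe they were 6.84, 8.68 and 7.37, and 6.24, 5.92 and 6.44, and for the upstream probe 2.35, 3.02 and 2.84, and 2.67, 2.74 and 2.91. The pesticide arrays were higher for every probe within every slide.

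The difference between the 2 diet effects did not pass the test for any probe. Both effects set arrays with Xist against arrays with Y-linked transcripts, so their difference is not a comparison by sex-linked transcripts. The labelled female effect minus the labelled male effect was -1.90 for Cyp2b9 (95% interval -4.03 to 0.22), -1.43 for the downstream Cyp2b10 probe (-3.34 to 0.48), 0.04 for the upstream probe (-0.83 to 0.91) and -0.66 for Cyp2b13 (-2.25 to 0.94), with a limma adjusted p of 1 for each. Among all 32078 probes limma called 0 in this contrast, and 1265 had an unadjusted p under 0.05.

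None of the 4 probes passed the adjusted test between the labelled sexes within a diet. Within a labelled diet the labelled sexes had the same pattern of Xist and Y-linked transcripts. These contrasts therefore do not compare arrays that differ in sex-linked transcripts. On control arrays Cyp2b9 was 1.76 ± 0.73 higher in the labelled female than in the labelled male group (limma adjusted p = 0.77, exact permutation p = 0.13, 95% interval 0.26 to 3.26), and the groups overlapped, as they did for all 4 probes. Groups without overlap were 0.436% of tested probes there, 0.0655% with the labelled female group higher. The differences of the downstream and upstream Cyp2b10 probes were 1.31 and 0.37, and that of Cyp2b13, for which only 2 of the 12 arrays were well above background, was 0.28. Limma called 0 of 32078 probes between the labelled female and labelled male control groups, with 1792 at an unadjusted p under 0.05. On pesticide arrays the labelled female minus labelled male differences were -0.14 for Cyp2b9 (95% interval -1.65 to 1.36), -0.12 and 0.40 for the downstream and upstream Cyp2b10 probes and -0.38 for Cyp2b13. The groups overlapped for all 4 probes, against 0.271% of tested probes without overlap and 0.118% without overlap and higher in the labelled female group. Limma again called 0 probes there, with 1311 at an unadjusted p under 0.05.

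The control arrays differed from each other far more in Cyp2b9 and in the downstream Cyp2b10 probe than the pesticide arrays did. Among the 6 labelled female control arrays the highest Cyp2b9 level, 11.92 in replicate 5, was 40.8-fold above the lowest, 6.57 in replicate 6. Replicates 1, 3 and 5 were between 10.15 and 11.92 and replicates 2, 4 and 6 between 6.57 and 7.45, with no array in between. Among labelled male control arrays the highest Cyp2b9 level, 9.42 in replicate 1, was 10.5-fold above the lowest, 6.03 in replicate 3. The SD of Cyp2b9 in the labelled female control group, 2.34, ranked 3 of 32078 tested probes and that of the downstream Cyp2b10 probe, 2.07, ranked 6, against a median SD of 0.19 over all tested probes in that group. In the labelled male control group the same 2 probes ranked 42 and 52. Each slide held 1 of the 3 high and 1 of the 3 low labelled female control arrays.

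Spread was compared as the mean absolute deviation of an array from its own group's median. For Cyp2b9 it was 0.24 log2 units on the 12 labelled pesticide arrays against 1.46 on the 12 labelled control arrays (permutation p = 0.00066, adjusted over 12 spread tests 0.0059). For the downstream Cyp2b10 probe it was 0.27 against 1.31 (permutation p = 0.00099, adjusted 0.0059). The upstream Cyp2b10 probe, at 0.43 against 0.40, and Cyp2b13, at 0.74 against 0.25, did not pass (permutation adjusted p = 0.98 and 0.28). The 2 differences that passed lost the adjusted threshold when any one of labelled female control replicates 1, 3, 5 or 6 was left out, with differences of -0.95 to -1.11 for Cyp2b9 and -0.84 to -0.98 for the downstream Cyp2b10 probe and adjusted permutation p-values of 0.051 to 0.087. These p-values came from fewer resamples, so the calls nearest the threshold are not settled. Between the labelled female and labelled male control groups the mean absolute deviation of Cyp2b9 was 2.06 against 0.86 (exact permutation p = 0.026, adjusted 0.10), which did not pass after adjustment. Without labelled male control replicate 1 that difference passed, at 1.5 (adjusted exact permutation p = 0.026).

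The members rose and fell together from one control array to the next. Over the 12 labelled control arrays, taken as deviations from the array's own group mean, Cyp2b9 and the downstream Cyp2b10 probe correlated at Pearson's r = 0.99 (permutation p = 1e-05, the smallest the resampling allows; Spearman's rho = 0.99), and r was 0.98 without the 2 arrays farthest from the median. Cyp2b9 and the upstream Cyp2b10 probe correlated at r = 0.92 (permutation p = 7e-05; rho = 0.94), and r was 0.93 without the 2 farthest arrays. The 2 Cyp2b10 probes correlated with each other at r = 0.95 (permutation p = 1e-05; rho = 0.97; 0.95 without the 2 farthest). Of the 6 probe pairs, 6 passed an adjusted permutation p of 0.05 over 24 relations, with r from 0.73 to 0.99. The upstream probe was well above background on only 2 of 6 labelled male control and 3 of 6 labelled female control arrays. The order of its other control values is therefore uncertain.

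The relation of Cyp2b13 to the other members was looser. Its r with Cyp2b9 was 0.78 over deviations (permutation p = 0.00096; rho = 0.66) and 0.73 without the 2 farthest arrays. Over levels rather than deviations r was 0.81 (rho = 0.58) and became 0.42 without labelled female control replicates 5 and 1, so the relation over levels rests on those arrays, the only control arrays where the probe was well above background. Within the 6 labelled male control arrays, where Cyp2b13 was below background throughout, r with Cyp2b9 was 0.25, and within the 6 labelled female control arrays it was 0.89. Values below background have no reliable order.

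On the 12 labelled pesticide arrays 3 of the 6 pairs passed the adjusted threshold, and replicate 3 of the labelled female pesticide group decided the call of several. Cyp2b9 and the downstream Cyp2b10 probe kept r = 0.93 over deviations without the 2 farthest arrays, against 0.98 with them (permutation p = 3e-05; rho = 0.90). Cyp2b9 and Cyp2b13 had r = 0.93 (permutation p = 0.0016; rho = 0.74), which was 0.56 without the 2 farthest arrays and 0.53 (adjusted permutation p = 0.096) without labelled female pesticide replicate 3 alone. The 2 Cyp2b10 probes had r = 0.50 (permutation p = 0.10; rho = 0.76) over all 12 arrays and 0.73 (adjusted permutation p = 0.016) without that array. On that array the downstream Cyp2b10 probe read 14.32, below the other 5 arrays at 15.62 to 15.91, while the upstream probe read 8.20, inside its group's range of 8.07 to 9.14. Whether the downstream probe also bound Cyp2b9 transcript was not tested.

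**Figure D2:**
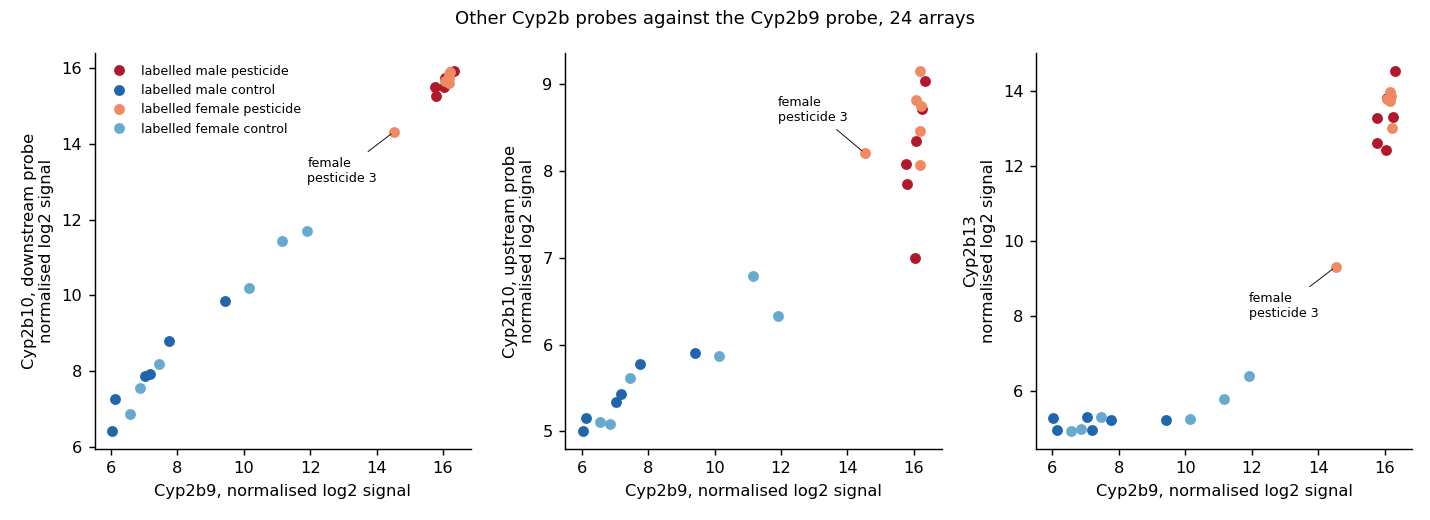
Normalised log2 signal of the downstream Cyp2b10, upstream Cyp2b10 and Cyp2b13 probes (vertical axes) against that of Cyp2b9 (horizontal axis) on 24 arrays, coloured by labelled group. The downstream Cyp2b10 probe follows Cyp2b9 over the whole range, and Cyp2b13 stays near its background level on most control arrays. The upstream Cyp2b10 probe follows Cyp2b9 on control arrays, many of which had it not well above background. Labelled female pesticide replicate 3 lies between the control and pesticide arrays for Cyp2b13.

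Among the genes that act with CAR, the receptor gene itself was higher on pesticide arrays. Nr1i3 had log2 levels of 11.83 to 12.18 on labelled male pesticide arrays, against 11.11 to 11.63 on labelled male control arrays, and 12.02 to 12.36 on labelled female pesticide arrays, against 11.05 to 11.91 on labelled female control arrays. The groups did not overlap, as for 10.2% of tested probes between the groups labelled male and 7.82% between those labelled female. Probes without overlap and higher in the pesticide group were 5.6% and 3.64%. The log2 fold change of Nr1i3 was 0.75 ± 0.13 (limma adjusted p = 0.00016) for the arrays labelled male and 0.74 ± 0.13 (limma adjusted p = 0.00021) for those labelled female. Its second tested probe gave 0.67 and 0.78. Of 21 tested genes on a list of the CAR machinery and its partners, 2 rose, 1 fell and 18 did not pass for the arrays labelled male, and 2 rose, 2 fell and 17 did not pass for those labelled female. Over all tested probes 11.6% rose and 10.7% fell for the arrays labelled male, and 8.88% and 9.44% for those labelled female, so the list's shares are near the background. The median log2 fold changes of the list were -0.04 and -0.05, beside -0.03 and -0.02 over all tested probes. Gadd45b, a stress-induced CAR partner in liver, rose by 1.19 and 1.05. Egfr, the receptor whose signalling keeps CAR inactive in the cytoplasm, fell by 1.89 and 1.71 on the log2 scale. Hsp90aa1, a chaperone of the cytoplasmic CAR complex, had 0.12 (limma adjusted p = 0.71) for the arrays labelled male and -0.59 (limma adjusted p = 0.043) for those labelled female. Nr1i2, which encodes the related receptor PXR, had -0.08 (limma adjusted p = 0.52) and 0.21 (limma adjusted p = 0.083).

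Other known CAR and PXR targets outside the Cyp2b family moved in both directions. Of 36 listed genes, 31 were tested, of which 9 rose, 4 fell and 18 did not pass for labelled male pesticide against labelled male control. For labelled female pesticide against labelled female control, 11 rose, 4 fell and 16 did not pass. Over all tested probes 11.6% rose and 10.7% fell for the arrays labelled male, and 8.88% and 9.44% for those labelled female. The share that rose was larger in the list, which was not tested as a set. The list's median log2 fold change was 0.06 and 0.05, beside -0.03 and -0.02 over all tested probes.

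Cyp2a4, a steroid 15-alpha-hydroxylase gene that is also on the list of female-biased genes, averaged 18.23 on labelled male pesticide arrays, against 15.56 on labelled male control arrays, and rose by 2.68 ± 0.24 (limma adjusted p = 1.6e-08) and by 1.77 ± 0.24 (limma adjusted p = 1.4e-05) for the arrays labelled male and female. Cyp3a11, the main PXR-induced drug oxidase of mouse liver, rose by 2.49 ± 0.34 and 1.96 ± 0.34 (limma adjusted p = 1.2e-05 and 0.00031). Cyp2c29, a CAR-responsive arachidonic acid epoxygenase, rose by 1.14 ± 0.11 and 1.05 ± 0.11. The transporter genes Abcc4, for an efflux pump, and Slco1a4, for a bile acid and drug uptake carrier, rose by 2.07 and 2.23 and by 2.29 and 2.06.

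Among the genes of the list that fell were Ugt2b35, a glucuronosyltransferase, at -0.90 and -0.96, and the retinal and xenobiotic aldehyde dehydrogenase genes Aldh1a1, at -0.64 and -0.82, and Aldh1a7, at -0.70 and -0.98. Meig1, known from spermatogenesis and induced in liver by CAR activators, fell by 2.16 and 2.35 on the log2 scale. Por, which encodes the electron donor of all microsomal cytochromes P450, had 0.03 and 0.24 (limma adjusted p = 0.94 and 0.41) and did not pass.

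**Figure D3:**
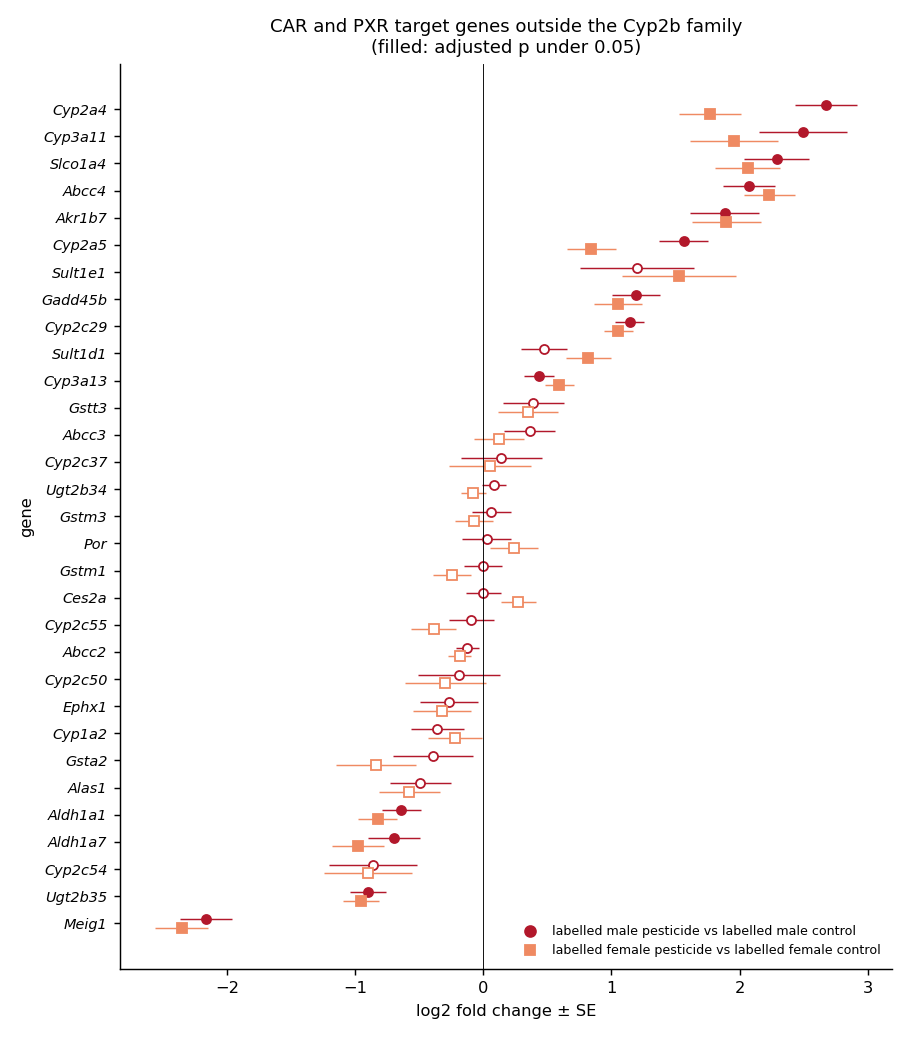
Log2 fold change ± SE (horizontal axis) of the 31 tested genes of the CAR and PXR target list (vertical axis), sorted by the comparison of labelled male pesticide with labelled male control arrays. Filled symbols passed a limma adjusted p of 0.05. Cyp2a4, Cyp3a11, Slco1a4 and Abcc4 are at the top and Meig1 at the bottom in both comparisons, and Por lies near 0.

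Genes with a known sex bias also moved with the labelled diet. Of 24 tested female-biased liver genes, from a list without Cyp2b members, 22 rose and 0 fell for the arrays labelled male and 20 rose and 0 fell for those labelled female, with median log2 fold changes of 2.85 and 2.33. Of 19 tested male-biased genes, 0 rose and 16 fell, and 0 rose and 15 fell, with medians of -3.43 and -3.03. These counts stand beside 11.6% higher and 10.7% lower of all tested probes for the arrays labelled male, and 8.88% and 9.44% for those labelled female. The part of diet and the part of sex in the Cyp2b difference cannot be told apart in these arrays.

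Markers of several other liver cells moved with the labelled diet as well, beside 11.6% and 8.88% of all tested probes that rose for the arrays labelled male and female. Of 10 Kupffer cell markers, 9 rose in each comparison, and their mean log2 level ranged from 11.70 to 12.48 on labelled male pesticide arrays, against 10.30 to 11.97 on labelled male control arrays, and from 11.24 to 12.87 on labelled female pesticide arrays, against 10.098 to 12.46 on labelled female control arrays. Of 8 endothelial markers 7 rose for the arrays labelled male and 5 for those labelled female, of 8 stellate cell and fibrosis markers 5 and 2, of 9 tested lymphocyte markers 4 and 0, and of 6 bile duct markers 0 and 0, and 0 of these markers fell. Of 4 tested adipocyte markers 0 rose in either comparison, and 2 and 1 fell. Of 3 tested exocrine pancreas markers 0 rose in either comparison, and 1 and 0 fell. Among all tested probes 10.7% and 9.44% fell. The mean level of the endothelial list was 10.06 to 10.61 on labelled male pesticide against 9.56 to 10.08 on labelled male control arrays, and 10.14 to 10.60 on labelled female pesticide against 9.57 to 10.04 on labelled female control arrays. That of the stellate list was 10.37 to 10.84 against 9.93 to 10.64 for labelled male pesticide and control, and 10.55 to 10.77 against 10.08 to 11.23 for labelled female pesticide and control. That of the lymphocyte list was 8.26 to 8.99 against 7.50 to 8.06, and 8.06 to 8.42 against 7.34 to 9.11, in the same order of groups. In bulk liver RNA, more cells of a type and more RNA per cell cannot be told apart. Of 9 tested hepatocyte markers 0 passed for the arrays labelled male, and 1 rose for those labelled female. The part of these cells in the Cyp2b difference was not tested.

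Along the Cyp2 cluster the Cyp2b genes had the largest changes. The stretch from 26587495 to 27833670 of chromosome 7 (mm9), chosen after the values were seen, holds 29 probes, of which 15 were tested. Of these, 13 rose and 0 fell in each comparison of diets, the 4 Cyp2b probes included, beside 11.6% and 8.88% of all tested probes that rose for the arrays labelled male and female. Cyp2a4 lies about as far from Cyp2b9 as Cyp2b13 does, on the other side. Beyond it Cyp2g1, an olfactory-type cytochrome, rose by 2.46 ± 0.34 and 2.18 ± 0.34, Cyp2a5, a coumarin hydroxylase, by 1.56 and 0.84, and Cyp2a22 by 1.70 and 1.53. The other Cyp2b genes on the array were not tested, since the single Cyp2b23 probe and the 3 Cyp2b19 probes were below the background filter. Of the 10 tested genes on a list of cluster neighbours, which reaches beyond this stretch, 5 rose and 2 fell for the arrays labelled male, and 5 rose and 1 fell for those labelled female, beside the same shares of all probes that rose and 10.7% and 9.44% that fell. Cyp2f2, a lung and liver cytochrome, had log2 fold changes of -0.998 (limma adjusted p = 0.00011) and -0.97 (limma adjusted p = 0.00018), and Rab4b, a small GTPase gene of endosomes, had -0.35 (limma adjusted p = 0.021) and -0.20 (limma adjusted p = 0.20). Whether probes of the close Cyp2a paralogues share signal was not tested.

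**Figure D4:**
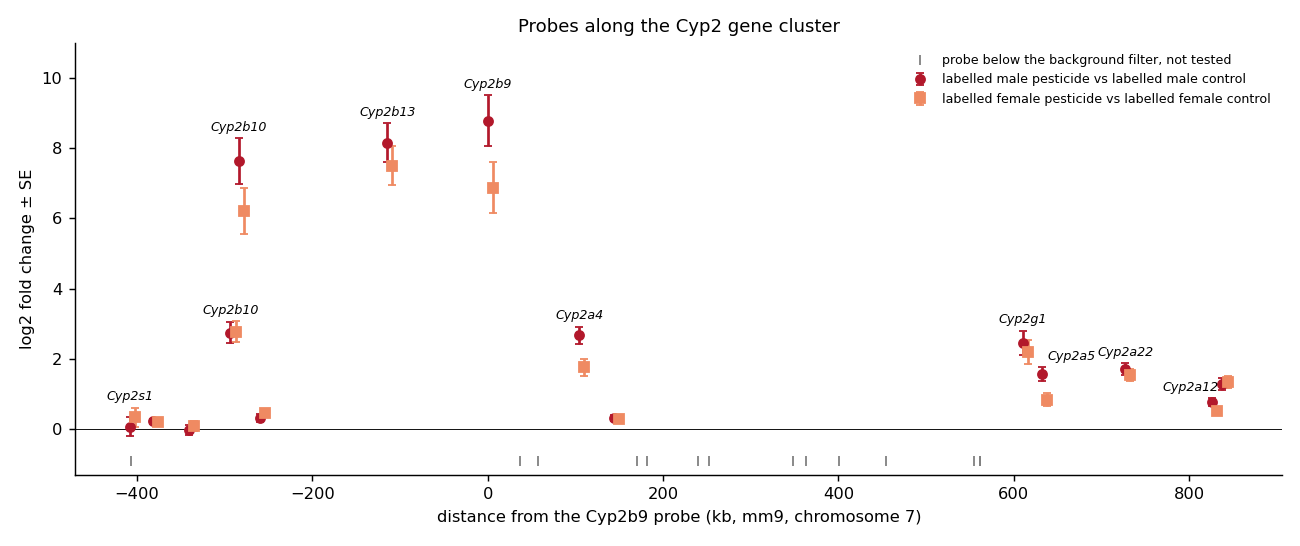
Log2 fold change ± SE (vertical axis) of the 15 tested probes in the Cyp2 stretch of chromosome 7 against distance from the Cyp2b9 probe in kb (horizontal axis). Grey ticks mark the 14 probes below the background filter. Cyp2b9, Cyp2b13 and the downstream Cyp2b10 probe lie above 6 in both comparisons, and the remaining cytochromes of the stretch lie below 3.

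The genes whose level most resembled that of the Cyp2b members were sought separately within each labelled diet. Likeness was Pearson's r with the mean of the 3 standardised members over the deviations of 12 arrays, over 10000 candidate genes with a mean log2 level of at least 8, and it is a description without a test. Cyp2b13 had equal weight in that mean. It was well above background on 0 of 6 labelled male control and 2 of 6 labelled female control arrays, so its part in the control values is uncertain. Within the labelled control arrays the highest were Slc20a2, a phosphate transporter gene (r = 0.95), Arhgap27os2 (0.94), Smim20 (0.92), the succinate semialdehyde dehydrogenase gene Aldh5a1 (0.92), the complement regulator gene Cd59a (0.92) and Pls3 (0.92), an actin-bundling protein gene. The lowest were the complement component gene C6 (-0.94), Oser1 (-0.94), Ccdc186 (-0.93), Socs3, a feedback inhibitor of cytokine and growth hormone signalling (-0.93), Dnaja4 (-0.92) and the RNA-editing enzyme gene Apobec1 (-0.91). Of these 12 genes only C6, a gene with higher expression in males, differed by diet in the limma test, at -3.56 and -3.21.

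Values of 2 of these genes, whose opposition to Cyp2b9 on these arrays was fixed by the way they were chosen, are given as a description. Socs3 was 9.61, 10.02 and 9.49 on replicates 1, 3 and 5, where Cyp2b9 was high, and 11.45, 10.68 and 11.67 on replicates 2, 4 and 6. C6 was 10.78, 10.99 and 10.28 on replicates 1, 3 and 5 and 12.29, 12.06 and 12.37 on replicates 2, 4 and 6. Labelled male control replicate 1, the highest of its group for Cyp2b9, was the lowest of its group for both Socs3 (10.20) and C6 (11.47).

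Nr1i3 followed Cyp2b9 on control arrays as well. Over the 12 labelled control arrays its deviations correlated with those of the Cyp2b9 probe at r = 0.77 (permutation p = 0.004, adjusted over 12 relations 0.048; rho = 0.71, adjusted permutation p = 0.14), and r was 0.71 without the 2 farthest arrays. Over the 12 labelled pesticide arrays r was 0.19 (permutation p = 0.63; rho = 0.62). Of the same 12 relations, those of Nr1i2, Cyp2c29, Cyp3a11, Por and Cyp2a4 with Cyp2b9 did not pass in either labelled diet, with r from 0.14 to 0.48 on control arrays (Cyp3a11 lowest, Cyp2c29 highest) and from -0.63 to -0.03 on pesticide arrays (Cyp2a4 lowest, permutation p = 0.018, adjusted 0.11, and Cyp2c29 highest). The list members Cyp2c37, Cyp2c50 and Abcc3, chosen after their values were seen, are CAR targets that did not pass by diet and had likeness values of 0.82, 0.79 and 0.78 within the control arrays. These values lie at the upper end of the CAR and PXR list, whose 31 tested genes ran from -0.55 to 0.82 within the control arrays. The median likeness of the whole list there was 0.24, beside 0.04 over 21402 tested genes. Other lists reached medians as high or higher, at 0.44 for the lipid droplet, 0.35 for the adipocyte and 0.25 for the female-biased list. Low medians were -0.41 for the male-biased, -0.37 for the bile duct and -0.35 for the liver tumour and fetal liver list. The CAR and PXR list therefore did not stand apart from other lists.

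**Figure D5:**
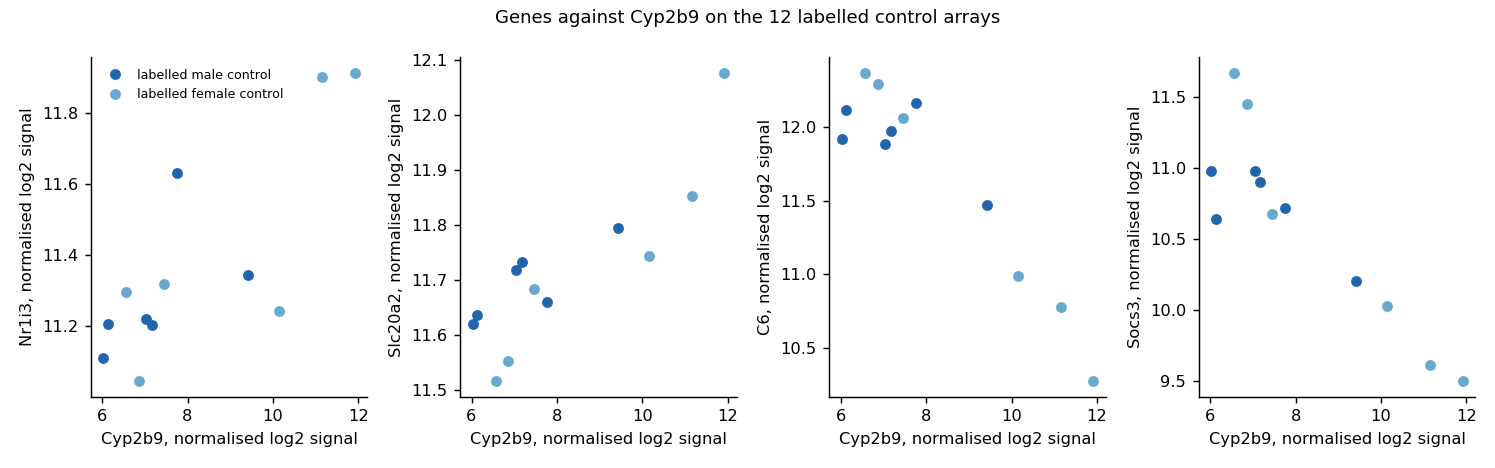
Normalised log2 signal of Nr1i3, Slc20a2, C6 and Socs3 (vertical axes) against that of Cyp2b9 (horizontal axis) on the 12 labelled control arrays. Points are arrays, coloured by labelled group. Nr1i3 and Slc20a2 run upward with Cyp2b9, C6 and Socs3 run downward, and labelled female control replicates 1, 3 and 5 lie at the high end of Cyp2b9.

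Within the labelled pesticide arrays other genes resembled the members. The highest were Washc1 (r = 0.92), Mad2l1bp (0.90), Rnf170 (0.88), Adam11 (0.88), Grin2d (0.86) and the protease inhibitor gene Mug1 (0.85), and the lowest Abhd12 (-0.88), the thyroid hormone deiodinase gene Dio1 (-0.87), Slc25a45 (-0.87), Ilf2 (-0.85), Alyref2 (-0.85) and Glrx (-0.85). Spearman's rho for the same genes was smaller in size for all 12, at 0.64 for Washc1, 0.38 for Grin2d and -0.37 for Dio1. None of the 12 genes named for the labelled pesticide arrays was among the 12 named for the labelled control arrays.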

How the data were processed

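Per the file headers, each array's text file gives the intensity of every spot from Agilent Feature Extraction 10.10.1.1. The authors also deposited a table of log2 values, made per the labels from median signals by filtering and quantile normalization, which served as an alternative; its filter is not given in the sources used here. From the scanner files, log2 median signals without background subtraction were quantile normalized over 56605 probes, outlier spots left out. Probes well above background on at least 4 of 6 arrays of a group were tested with limma 3.58.1 in R 4.3.3, with 1 mean per group over 24 arrays, two-sided, at an adjusted p of 0.05. Single-probe, spread and correlation tests used two-sided permutation, exact up to 6 against 6 and otherwise 100000 resamples. Fewer resamples were drawn where such a test was rerun without 1 array. Precision is limited by the 6 arrays a group. An array had 29935 to 39032 probes clear of background, the highest count being that of labelled female pesticide replicate 3. Data were simulated for labelled male pesticide against labelled male control over 32078 probes, with 200 changed and 1 spread per probe for all groups. There limma recovered 93% of log2 changes of size 1 and 98% of size 2, and called 7 unchanged probes. The simulation does not cover probes whose groups differ in spread, as those of Cyp2b9 do. Probes were named through RefSeq accession or the file's symbol. For a gene with several probes, the brightest tested one was used. Outside the members, the text names per comparison up to 4 genes of smallest p in each direction from the CAR and PXR, CAR machinery and cluster lists, with Nr1i3, Nr1i2, Cyp2c29, Cyp3a11, Por, Cyp2a4 always, and the 6 most and least alike genes. The members and lists were chosen with earlier results of these data known. Sequences came from the scanner files and RefSeq, aligned with Biopython 1.88. Replicate numbers were not a shared mouse in the labels. Same-numbered arrays of different groups, which also shared a slide, correlated over 0.1 in 15 of 36 pairs, against 34 of 180 pairs with other numbers.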

Additional observations from a re-analysis of the deposited data

Results flagged for a closer look

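Of 16 combinations of probe and labelled group, 3 held an array far from the other 5 of its group, all of them labelled female pesticide replicate 3. That array read 14.52 for Cyp2b9, against 16.07 to 16.21 on the other 5 arrays. It read 14.32 for the downstream Cyp2b10 probe, against 15.62 to 15.91, and 9.32 for Cyp2b13, against 13.01 to 13.98. For the upstream Cyp2b10 probe it read 8.20 and did not stand apart. The gap to the nearest array divided by the group's range was above Dixon's critical value for 6 arrays in the 3 cases, at 0.915, 0.817 and 0.793. Chance alone flags some groups at this 95% threshold, and the 3 cases share 1 array. That array also differed as a whole before normalization. Its median spot signal was 109, where the next highest array had 81. It had 39032 probes clear of background, where the next highest array had 33393. The cause was not tested.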

How the results depend on the processing

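The number of arrays and, for the upstream Cyp2b10 and Cyp2b13 probes, signal near background on control arrays limit these results. All 4 probes stayed higher on labelled pesticide arrays under every alternative run. The log2 fold change of Cyp2b9 lay between 7.88 and 9.85 for labelled male pesticide against labelled male control, past limma's threshold in 40 of 40 alternatives, and between 6.38 and 7.45 for the arrays labelled female, past it in 39 of 40. A replicate block left Cyp2b9 at 8.78 (limma adjusted p = 3.7e-08) and 6.87 (limma adjusted p = 1.2e-06) and changed no call of a Cyp2b probe. Same-numbered arrays of different groups correlated at a median of 0.08, against -0.02 for other numbers, and 14 of 24 arrays correlated best with their own number. Since same-numbered arrays share a slide, slide and replicate number cannot be told apart here. On Feature Extraction's processed signal the upstream Cyp2b10 probe moved to 4.66 and 4.40 and Cyp2b13 to 11.05 and 9.72, against 8.16 and 7.50. For the upstream Cyp2b10 probe the difference between the diet effects moved to -0.26 and the spread difference to -0.66. The cause of the changed values was not tested, except that single slides hold 2 arrays a group.

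With slide 1 alone, 1052 and 1041 probes passed for the arrays labelled male and female, against 7131 and 5878 with all slides. The upstream Cyp2b10 probe no longer passed, at 2.35 and 2.67 (limma adjusted p = 0.16 and 0.12), the Cyp2b13 difference between diet effects was 0.10, and the labelled female minus labelled male pesticide differences were 0.020 for the downstream Cyp2b10 probe and 0.39 for Cyp2b13. With slide 2 alone, 583 and 319 probes passed, Cyp2b13 was 5.88 for the arrays labelled female (limma adjusted p = 0.05) and the upstream Cyp2b10 difference between diet effects -0.28. With slide 3 alone, 459 and 346 probes passed, Cyp2b9 was 6.89 and the downstream Cyp2b10 probe 6.44 for the arrays labelled female (limma adjusted p = 0.076 and 0.069), the Cyp2b13 difference between diet effects 0.47, and the labelled female minus labelled male pesticide differences 0.13 for Cyp2b9, 0.0096 for the downstream Cyp2b10 probe and 0.87 for Cyp2b13. With array weights, the upstream Cyp2b10 difference between diet effects was -0.18 and the Cyp2b13 difference between labelled female and labelled male pesticide 0.052.

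Leaving out 1 array at a time, the difference between diet effects ran from -0.20 to 0.24 for the upstream Cyp2b10 probe and from -0.86 to 0.071 for Cyp2b13. The labelled female minus labelled male pesticide difference ran from -0.21 to 0.13 for Cyp2b9, -0.20 to 0.12 for the downstream Cyp2b10 probe and -0.58 to 0.35 for Cyp2b13. The spread difference of labelled pesticide minus labelled control arrays ran from -1.35 to -0.95 for Cyp2b9, -1.16 to -0.84 for the downstream and -0.053 to 0.10 for the upstream Cyp2b10 probe. That of labelled female minus labelled male control ran from 0.71 to 1.5 for Cyp2b9. That of labelled female minus labelled male pesticide ran from -0.14 to 0.19 for Cyp2b9, -0.12 to 0.16 for the downstream Cyp2b10 probe and -0.34 to 0.55 for Cyp2b13.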
